A study of Mus musculus with 6 samples.

Results

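Axon guidance ligands and receptors are the secreted and membrane-bound cues, and their receptors, that steer growing axons and migrating neurons. They were taken here as the ephrins and Eph receptors, semaphorins of classes 3 to 7, plexins, neuropilins, Slits, Robos, netrins, and Dcc with the Unc5 receptors, and were matched by gene symbol alone. These families and the gene lists used below were chosen with earlier results of these data known. The rule found 73 of the 37991 Ensembl genes in the count tables, under 71 symbols, because Efna5 and Ntng1 each have a second identifier. Of these, 72 passed the filter on low counts and were tested. The second identifier of Ntng1, with 0 to 8 reads per embryo, was not.

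RNA was sequenced from the dorsal telencephalon, the embryonic forebrain region that forms the neocortex, of CD1 mouse embryos at E13.5. In the FGF2 group, 3 embryos (numbered 6, 7 and 8) had been injected intraventricularly with the growth factor FGF2 (100 ng), and in the vehicle group 3 embryos (7, 8 and 9) had been given PBS with 0.1% BSA alone. The labels place injection at the same embryonic day and do not give the time to collection. Each embryo gave 1 library, made from formalin-fixed coronal cryosections of regions in front of the hippocampus, and the labels do not say whether embryos shared a litter.

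The libraries held 61489462 to 81532334 counts. Every non-zero count in vehicle 9 was even, against 51% to 51.9% in the others. Y-linked reads marked the 3 FGF2 embryos and vehicle 7 as male (10475 to 16232 reads), and vehicle 8 and 9 had 22 each, so sex was unbalanced between the groups. Emx1, which marks the dorsal telencephalon, was read in every embryo, at 96.0 to 109 CPM (counts scaled to library size) in the FGF2 embryos and at 182 to 186 CPM in the vehicle embryos.

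Ephrins are ligands held at the cell surface, by a lipid anchor in class A and by a transmembrane domain in class B, and they act on the Eph receptor kinases of neighbouring cells. Semaphorins act through plexins, with neuropilins as co-receptors of the secreted class 3, and Slits act through Robos. Secreted netrins act through Dcc (attraction) and the Unc5 receptors (repulsion). In the embryonic cortex these systems guide thalamic, commissural and corticofugal axons, and also radial migration and the mapping of areas.

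Of the 72 members tested, 8 were higher and 4 were lower in the FGF2 embryos past an adjusted p of 0.05 in edgeR's quasi-likelihood test. That is 11.1% and 5.56% of them, where 2.68% and 0.951% of all 21983 genes tested were higher and lower (3.63% in either direction). The members that rose were Efnb3, Epha8, Ephb1, Plxnc1, Slit2, Robo3, Ntn1 and Unc5c, and those that fell were Efnb2, Epha4, Sema4d and Sema5a. The median log2 fold change of the members was -0.05, beside 0.01 for all genes tested. Separate groups, with every FGF2 embryo on one side of every vehicle embryo, were found for 18 members that were higher and 10 that were lower, where 14.6% and 13.6% of all genes had separate groups in these directions. These 28 members (38.9%) compare with 28.2% of all genes. An unadjusted p under 0.05 was found for 30 members and for 4242 of all genes.

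**Figure D1:**
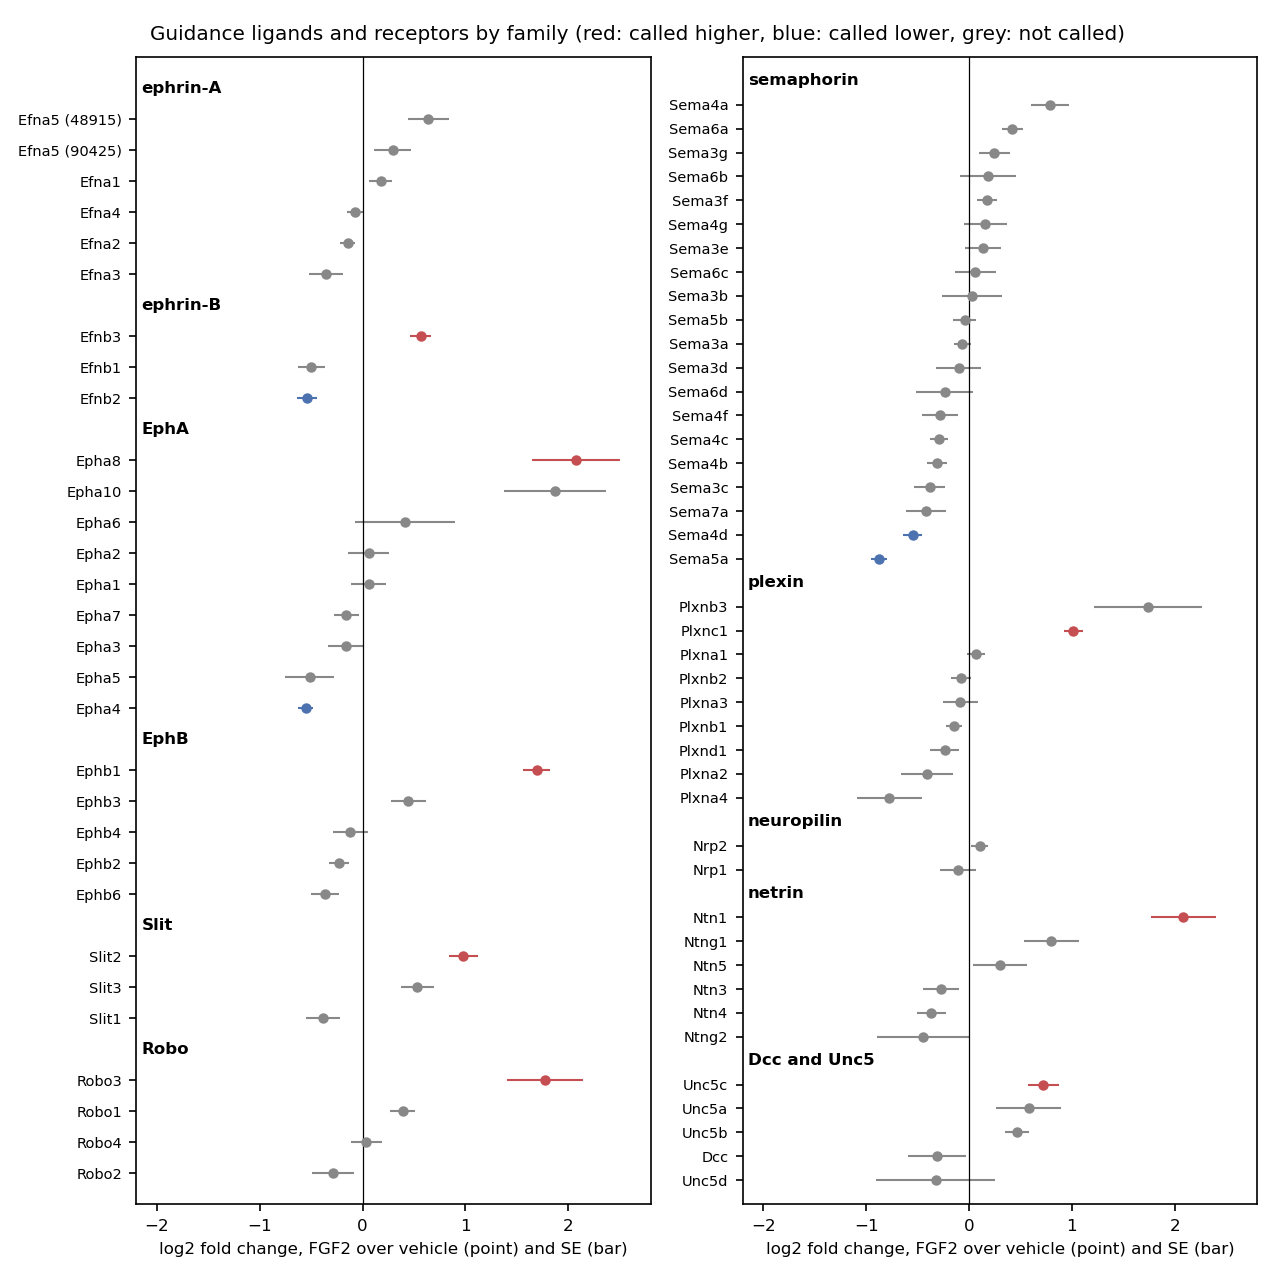
Log2 fold change (FGF2 over vehicle, points) with its standard error (bars) for the 72 tested members, grouped by family, with called members in red (higher) and blue (lower). Both directions occur within most families, and the largest rises are those of Ntn1 (2.08) and Epha8 (2.07).

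Because sex was unbalanced between the groups, it could not be fully separated from FGF2 in any of these calls. With embryo sex as a covariate the contrast rests on vehicle 7, the only male vehicle embryo, and 0 of the 12 called members passed (adjusted p = 0.0538 to 0.517), as did only 5 of all genes. All 12 kept their direction in that fit. Whether sex or the fewer embryos left to compare lost the calls cannot be told apart.

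Many of the calls were lost in fits without 1 embryo. Such fits also have fewer embryos, and whether that or the embryo left out lost a call was not tested. Ephb1, Plxnc1 and Sema5a passed in each of the 6 fits without 1 embryo, Ntn1 in all but that without vehicle 8 (adjusted p = 0.0846), and Epha4 in all but the fits that dropped vehicle 8 or 9 (highest adjusted p = 0.0746). The other 7 were lost in 4 or 5 of these fits. The number of members called higher was 5 without FGF2 6 or FGF2 7, 13 without FGF2 8, and 3 without any 1 vehicle embryo. For members called lower it was 2, 3 and 17 without FGF2 6, 7 and 8, and 2, 1 and 1 without vehicle 7, 8 and 9.

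Ephb1, Plxnc1 and Sema5a are shown first by sequence, as the members whose calls were kept in every fit without 1 embryo. Robo3, whose call was lost in 5 of the 6 fits, is shown beside them and was not chosen by this rule. The windows hold 250 bases before to 50 after the RefSeq transcription start (build GRCm38.p6, another build than that of the counts), 5′ to 3′ on the gene's strand. Capitals mark, on either strand, TAATTA, the core read by many homeodomain factors, GGGCGG, the GC box read by Sp factors, and CCGGAAG, a core read by ETS factors.
Ephb1, chr9:102354644-102354943, minus strand: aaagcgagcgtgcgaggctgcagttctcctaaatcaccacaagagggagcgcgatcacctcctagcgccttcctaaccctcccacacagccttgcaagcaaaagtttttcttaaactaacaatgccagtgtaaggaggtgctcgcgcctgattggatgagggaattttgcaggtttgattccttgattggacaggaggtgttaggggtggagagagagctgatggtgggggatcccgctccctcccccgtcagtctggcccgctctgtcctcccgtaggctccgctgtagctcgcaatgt
Plxnc1, chr10:94944796-94945095, minus strand: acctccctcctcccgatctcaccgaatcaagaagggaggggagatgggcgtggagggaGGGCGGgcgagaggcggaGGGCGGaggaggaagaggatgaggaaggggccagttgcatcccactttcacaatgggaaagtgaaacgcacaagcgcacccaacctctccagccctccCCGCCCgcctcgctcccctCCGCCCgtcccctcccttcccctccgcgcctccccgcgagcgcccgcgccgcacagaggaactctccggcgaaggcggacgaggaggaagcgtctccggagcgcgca
Sema5a, chr15:32244563-32244862, plus strand: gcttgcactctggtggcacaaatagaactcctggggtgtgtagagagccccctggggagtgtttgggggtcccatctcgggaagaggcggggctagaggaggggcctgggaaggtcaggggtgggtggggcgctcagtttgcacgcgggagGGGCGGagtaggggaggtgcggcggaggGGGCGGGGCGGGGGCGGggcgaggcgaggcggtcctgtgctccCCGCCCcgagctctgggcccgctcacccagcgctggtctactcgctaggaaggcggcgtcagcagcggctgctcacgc
Robo3, chr9:37433126-37433425, minus strand: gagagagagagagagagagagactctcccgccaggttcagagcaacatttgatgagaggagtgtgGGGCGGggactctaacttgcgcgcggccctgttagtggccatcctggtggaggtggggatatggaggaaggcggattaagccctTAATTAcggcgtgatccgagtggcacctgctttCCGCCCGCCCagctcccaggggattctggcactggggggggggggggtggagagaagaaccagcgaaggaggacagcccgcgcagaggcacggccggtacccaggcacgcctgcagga

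The Ephb1 window held none of the 3 motifs. GC boxes stood 4 times in that of Plxnc1, 5 times in that of Sema5a and 3 times in that of Robo3, counting overlapping matches. Among the 12 windows of the 10 called members in the table, TAATTA was found only in that of Robo3, and CCGGAAG in 0. Over all 32851 windows in the table, GGGCGG was found in 35.7%, TAATTA in 5.29% and CCGGAAG in 8.86%. In the 77 windows of the 61 member symbols matched, the shares were 70.1%, 3.9% and 2.6%. The members' windows had a median GC content of 64.0%, against 52.7% over the whole table.

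Ligands of the ephrin families were measured first as levels per length, in the deposited RPKM (reads scaled to gene-model length and library size). Efnb1 was the most abundant member, at 104 ± 5.81 RPKM in the vehicle and 75.3 ± 14.1 RPKM in the FGF2 embryos (SD, n = 3). Efnb2 followed at 68.2 ± 0.939 against 46.8 ± 5.32 RPKM, and Efna2 was the highest ephrin-A at 32.2 ± 1.10 against 29.9 ± 0.637 RPKM.

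Efnb2 and Efnb3, both transmembrane ephrins of class B, moved in opposite directions. Efnb2 (chromosome 8, 8617433 to 8661239, NCBIM37) stood at 237, 236 and 198 CPM in FGF2 embryos 6, 7 and 8 and at 327, 322 and 328 CPM in vehicle embryos 7, 8 and 9. It fell by 0.54 ± 0.09 (SE) on the log2 scale (edgeR adjusted p = 0.0246). Every FGF2 embryo was below every vehicle embryo, with FGF2 8 lowest. Efnb3 (chromosome 11, 69367593 to 69373707) stood at 79.3, 79.1 and 98.2 CPM against 54.7, 62.0 and 56.9 CPM. It rose by 0.56 ± 0.11 (SE, edgeR adjusted p = 0.0320), with FGF2 8 highest and no overlap between the groups. Efnb1, on the X chromosome, was at 266, 274 and 198 against 368, 348 and 328 CPM and did not pass (log2 fold change -0.50, edgeR adjusted p = 0.0899), although its groups were separate as well.

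None of the 6 ephrin-A genes passed, at log2 fold changes of -0.36 (Efna3) to 0.64 (Efna5). Efna5, a cue that maps thalamic axons to cortical areas, was at 92.0, 91.9 and 54.2 CPM against 55.8, 48.7 and 48.3 CPM in its long span (edgeR adjusted p = 0.129). FGF2 6 and 7 were thus well above the vehicle embryos and FGF2 8 within their range. The second identifier of Efna5 lies inside this span and is not a separate measurement.

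Among the Eph receptors, Ephb1 had the smallest adjusted p, which was also the smallest of all 72 members tested. This receptor of B-class ephrins directs uncrossed retinal axons at the optic chiasm. Its counts (chromosome 9, 101824457 to 102257023) were 41.4, 48.0 and 50.2 CPM in the FGF2 embryos and 16.0, 14.8 and 12.3 CPM in the vehicle embryos. The groups lay far apart, and Ephb1 rose by 1.69 ± 0.13 (SE, edgeR adjusted p = 0.00135), 3.23-fold. In RPKM it was at 6.22 ± 0.865 against 1.82 ± 0.204 (SD, n = 3).

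Epha8, another Eph kinase (chromosome 4, 136485333 to 136512731), was scarce in both groups, at 209, 101 and 288 reads against 34, 55 and 38 reads. In CPM these were 2.48, 1.42 and 4.48 against 0.56, 0.82 and 0.60, a wide spread in the FGF2 embryos with no overlap. Epha8 rose by 2.07 ± 0.43 (SE, edgeR adjusted p = 0.0439). Epha4, a receptor for ephrins of both classes (chromosome 1, 77363759 to 77511663), stood at 130, 133 and 130 CPM against 179, 197 and 202 CPM, so that the FGF2 embryos hardly differed among themselves. It fell by 0.56 ± 0.08 (SE, edgeR adjusted p = 0.00994). Epha4 was the highest Eph receptor per length, at 19.3 ± 0.558 against 27.8 ± 1.96 RPKM.

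Of 9 EphA and 5 EphB receptors, 1 and 1 rose, 1 and 0 fell, and 7 and 4 did not pass. Ephb4, the highest EphB per length and a receptor known from veins, was at 74.0, 73.3 and 46.2 against 72.2, 68.9 and 69.2 CPM. Epha10 was at 93, 46 and 64 reads against 21, 6 and 20 reads and did not pass (log2 fold change 1.87, edgeR adjusted p = 0.0903). The receptors Epha1, Epha2, Epha3, Epha5, Epha6, Epha7, Ephb2, Ephb3 and Ephb6 had log2 fold changes of -0.51 (Epha5) to 0.44 (Ephb3).

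Semaphorins are the largest family here, with 20 members, of which 2 fell, 0 rose and 18 did not pass. Sema5a, a transmembrane semaphorin with thrombospondin repeats (chromosome 15, 32174567 to 32626096), stood at 110, 103 and 106 CPM in the FGF2 embryos and at 213, 191 and 184 CPM in the vehicle embryos. The FGF2 values were close together and all were below the vehicle values. Sema5a fell by 0.88 ± 0.08 (SE, edgeR adjusted p = 0.00237), the largest fall among called members, and stood at 8.42 ± 0.315 against 14.7 ± 1.14 RPKM (SD, n = 3). Sema4d, a ligand of Plxnb1 (chromosome 13, 51796614 to 51889116), stood at 20.0, 23.4 and 21.7 against 32.6, 31.4 and 31.0 CPM. It fell by 0.55 ± 0.09 (SE, edgeR adjusted p = 0.0232), again with separate groups.

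The other semaphorins ranged from -0.42 (Sema7a) to 0.78 (Sema4a) in log2 fold change. Sema4a was at 13.4, 11.2 and 18.0 against 8.62, 8.53 and 7.52 CPM, apart between the groups but not past the test (edgeR adjusted p = 0.0646). Sema6a, a transmembrane semaphorin, was likewise at 95.1, 93.5 and 89.2 against 73.8, 74.7 and 59.3 CPM (edgeR adjusted p = 0.0698). Sema6c was the highest semaphorin per length, at 19.0 ± 5.98 against 17.7 ± 0.390 RPKM. Sema3a, a classical secreted repellent of cortical axons, was at 46.6 ± 1.86 against 48.7 ± 2.78 CPM (SD, n = 3), with a log2 fold change of -0.06 ± 0.08 (SE).

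Plxnc1, the receptor of Sema7a, was the only plexin of 9 to pass. It stood at 39.1, 44.5 and 40.6 CPM in the FGF2 embryos and at 20.3, 21.7 and 19.6 CPM in the vehicle embryos (chromosome 10, 94253616 to 94407212). Each group was tight, and Plxnc1 rose by 1.01 ± 0.09 (SE, edgeR adjusted p = 0.00203), while its ligand Sema7a was at 18.1, 22.7 and 32.6 against 34.6, 31.6 and 31.8 CPM and did not pass. Plxnb2 was the highest plexin per length, at 34.2 ± 2.55 against 34.8 ± 3.15 RPKM, and Plxnb3 the lowest, at 20, 38 and 26 against 8, 4 and 10 reads. Plxnb3 did not pass (log2 fold change 1.74, edgeR adjusted p = 0.123). The others lay between -0.78 (Plxna4) and 0.07 (Plxna1). Neither neuropilin passed: Nrp1 and Nrp2, co-receptors for class 3 semaphorins, were at 87.7 ± 24.5 against 94.5 ± 2.1 and at 117 ± 2.07 against 109 ± 10.8 CPM.

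Slit2, a secreted repellent made at the midline and in the ventral forebrain, stood at 52.1, 46.4 and 36.8 CPM against 20.7, 25.2 and 22.9 CPM (chromosome 5, 48374393 to 48697521). All FGF2 embryos were above all vehicle embryos, and Slit2 rose by 0.98 ± 0.14 (SE, edgeR adjusted p = 0.0122). Slit3 was at 22.1 ± 2.90 against 15.3 ± 2.82 CPM (edgeR adjusted p = 0.128) and Slit1 at 36.7 ± 9.25 against 47.9 ± 3.01 CPM (edgeR adjusted p = 0.261), so the values of the 3 Slits did not share a direction.

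Robo3, which lets commissural axons cross the midline (chromosome 9, 37223253 to 37240760), stood at 42.2, 19.9 and 27.8 CPM against 7.20, 13.2 and 5.90 CPM. Its groups were separate but spread widely, with FGF2 6 highest and vehicle 8 the highest of the vehicle embryos. Robo3 rose by 1.77 ± 0.37 (SE, edgeR adjusted p = 0.0458), a call that was lost without the filter on low counts (adjusted p = 0.107) and with limma-voom (0.0786). Robo1 was at 98.0 ± 12.9 against 74.8 ± 8.60 CPM (edgeR adjusted p = 0.131), apart between the groups in CPM. In RPKM its groups overlapped, with vehicle 9 at 8.36 above FGF2 7 at 7.99. Robo2 and Robo4, the latter known from endothelium, had log2 fold changes of -0.29 and 0.03.

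Ntn1, the attractant secreted by the floor plate, had the largest rise of all members in the test of counts. It stood at 49.6, 54.3 and 30.2 CPM in the FGF2 embryos and at 14.5, 10.4 and 6.73 CPM in the vehicle embryos (chromosome 11, 68022865 to 68214325). FGF2 8 was lowest of its group and still above every vehicle embryo. Ntn1 rose by 2.08 ± 0.32 (SE, edgeR adjusted p = 0.0165), 4.24-fold, and stood at 7.24 ± 2.3 against 1.68 ± 0.616 RPKM (SD, n = 3). By the log2 ratio of mean RPKM, the scarce Epha10 (2.57) and Epha8 (2.20) were above Ntn1 (2.11). The other netrins that were tested, which include the membrane-anchored netrin-G genes Ntng1 and Ntng2, did not pass. Ntng2, the highest netrin per length over the 6 embryos, was at 26.2, 35.0 and 85.7 against 60.9, 86.0 and 52.9 CPM.

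Unc5c, a receptor of the repulsive response to netrin (chromosome 3, 141128527 to 141497888), stood at 23.7, 16.6 and 18.3 CPM against 12.5, 11.1 and 12 CPM. The groups did not overlap, and Unc5c rose by 0.72 ± 0.15 (SE, edgeR adjusted p = 0.0429). Unc5b was at 21.1, 19.0 and 17.5 against 13.3, 13.2 and 15.1 CPM, with separate groups, and did not pass (edgeR adjusted p = 0.0731). It was the highest of these receptors per length. Unc5a was at 8.62 ± 4.17 against 5.77 ± 0.673 CPM, and Dcc, the attractive receptor, at 340 ± 103 against 422 ± 122 CPM with a log2 fold change of -0.31 ± 0.28 (SE).

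**Figure D2:**
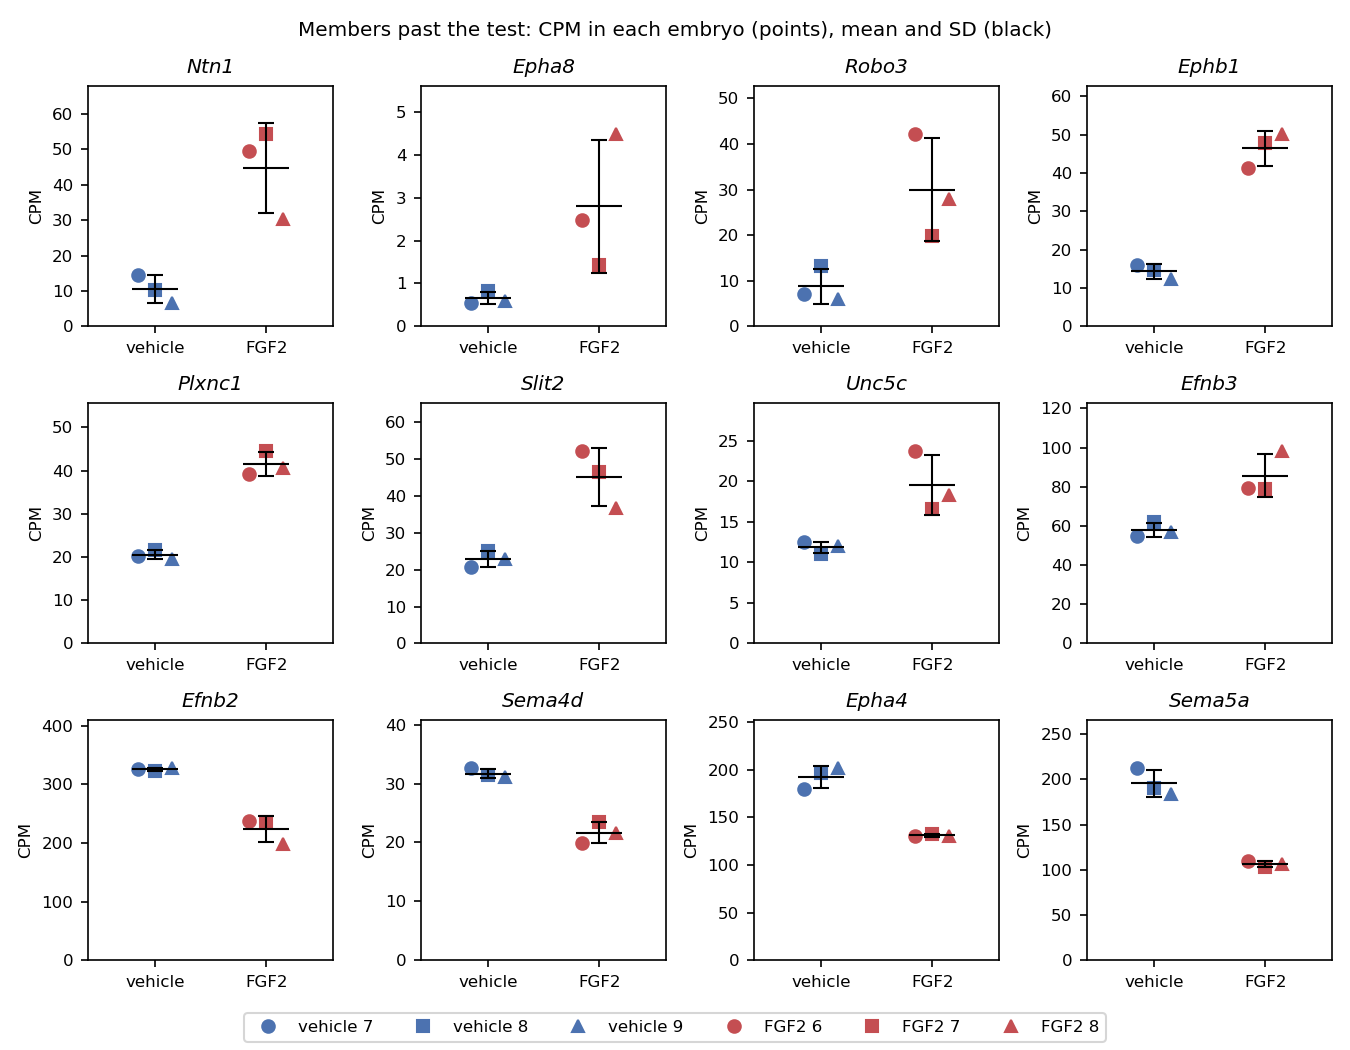
CPM of the 12 called members in each embryo (points), with the mean and SD of 3 embryos (black), on axes from 0. The 3 FGF2 embryos and the 3 vehicle embryos do not overlap in any of the 12 panels.

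By role, 3 of 38 ligands rose and 3 fell, and 5 of 34 receptors rose and 1 fell. Of the 12 called members 5 changed at least 2-fold, and 0 of these fell. Both deposited measures gave the same direction for all 12, and in RPKM too their groups were separate. On log2(RPKM + 1), limma called 7 of the 11 that passed its filter on low values, and Slit2 (adjusted p = 0.0506), Robo3 (0.0536), Sema4d (0.0587) and Unc5c (0.169) were not called. The spans of 6 of the 12 (Ephb1, Sema4d, Plxnc1, Slit2, Ntn1 and Unc5c) overlap other annotated genes. Their counts can include reads of those genes, and how many was not measured. Of 69 members with a single RPKM value, 22 had a mean of at least 10 RPKM over the 6 embryos, 36 lay between 1 and 10 and 11 were below 1.

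**Figure D3:**
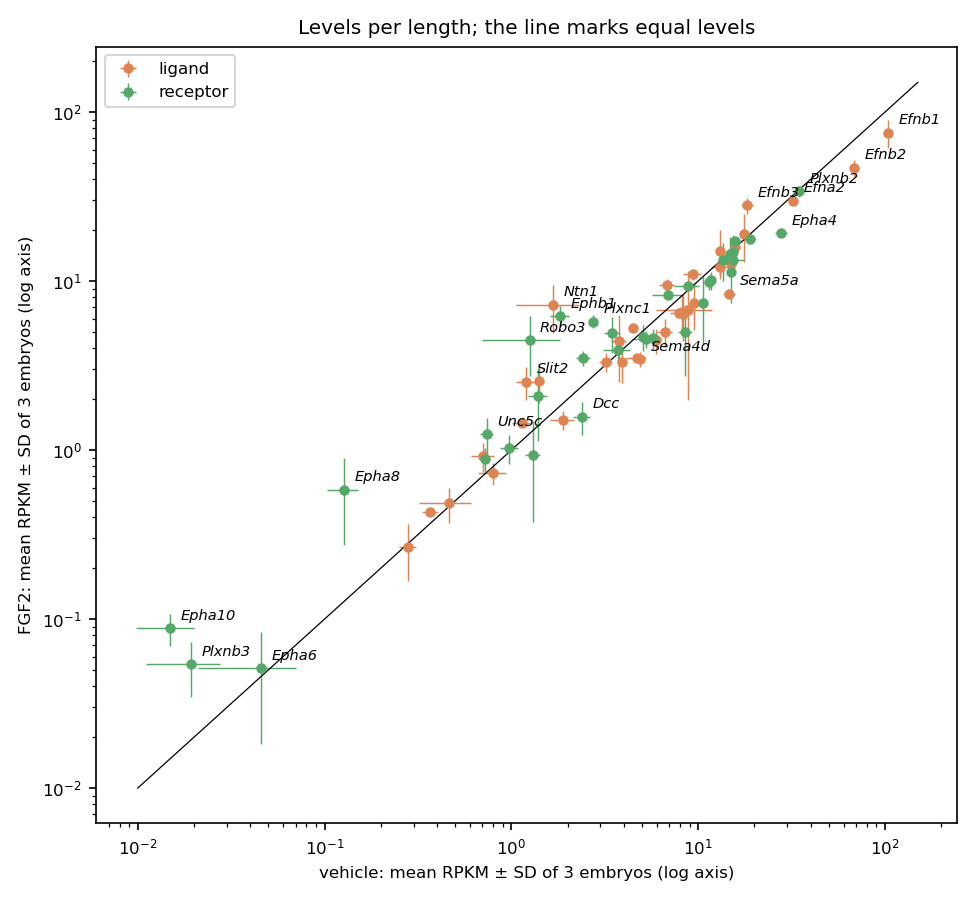
Mean RPKM (with SD of 3 embryos) of 69 members in vehicle and FGF2 embryos on log axes, ligands in orange and receptors in green, with a line at equal levels. Efnb1 at 104 RPKM in the vehicle embryos is the highest member, and Ntn1, Robo3, Ephb1 and Epha8 lie above the line.

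Genes that mark brain regions also differed between the groups. Of 20 identifiers for 18 ventral telencephalic genes, 15 were higher and 0 lower, and their summed level was 869 to 1113 CPM in the FGF2 and 140 to 269 CPM in the vehicle embryos, where Gsx1 was at 0. Of 14 genes of the hem and dorsal midline 8 were higher and 0 lower (172 to 321 against 110 to 115 CPM summed). In the diencephalon and midbrain list 4 of 12 tested were higher and 0 lower (237 to 396 against 181 to 200 CPM), and Foxa2, which marks the floor plate, was at 3, 4 and 1 reads against 0 and was not tested. Choroid plexus genes counted 7 of 10 higher and 1 lower (179 to 496 against 23.2 to 25.4 CPM), and 4 of 15 dorsal telencephalic genes were lower and 0 higher (2230 to 2546 against 3349 to 3578 CPM).

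Cells outside the neural tissue were measured too. Of 13 endothelial and pericyte genes, which bear on Ephb4, Robo4 and Plxnd1, 0 passed at 316 to 371 against 280 to 320 CPM summed, nor did any of 10 red blood cell genes (2629 to 4676 against 2348 to 3292 CPM). Of 10 microglial genes 5 were higher and 0 lower (125 to 150 against 78.5 to 94.4 CPM), and of 11 meningeal genes 2 were higher and 2 lower (2480 to 2757 against 3639 to 4167 CPM). The part of any of these regions or cells in the values of the members was not tested. In such bulk tissue fewer cells of a type and less RNA per cell cannot be told apart.

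The embryo FGF2 8 stood apart from FGF2 6 and 7 in many members. In CPM, FGF2 6 and 7 were both below every vehicle embryo in 21 of 72 members (29.2%) while FGF2 8 was not. This pattern was found in 8.48% of all genes tested. The opposite pattern, FGF2 6 and 7 above and FGF2 8 not, was found in 5 members (6.94%) and in 6.93% of all genes. These patterns were counted after the values had been seen and for FGF2 8 alone. How often FGF2 6 or FGF2 7 stood apart in this way was not counted. The 21 include Plxna2, Plxna3, Plxna4 and Plxnd1, Nrp1, Slit1, Robo2, Ntng2, Unc5d, Epha3 and Epha5, the ephrins Efna3 and Efna4, and 8 semaphorins.

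Unc5d, a receptor of migrating cortical neurons, was at 9.08, 12.5 and 42.8 CPM in FGF2 embryos 6, 7 and 8 and at 26.2, 33.1 and 21.2 CPM in the vehicle embryos. FGF2 8 was thus the highest of all 6 embryos and FGF2 6 and 7 the lowest. Plxna2, a co-receptor partner of neuropilins, was at 135, 166 and 288 against 255, 265 and 263 CPM. Plxna4, of the same class, was at 37.5, 59.0 and 98.9 against 122, 114 and 98.7 CPM, and Robo2 at 130, 115 and 207 against 192, 186 and 173 CPM. In all 4 genes FGF2 8 lay within or above the range of the vehicle embryos in CPM. In RPKM, Plxna4 in FGF2 8 was at 7.37 against 7.71 to 9.23 in the vehicle embryos, below every one of them. This also held for Epha3, Sema3c and Slit1 but for no other of the 21.

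**Figure D4:**
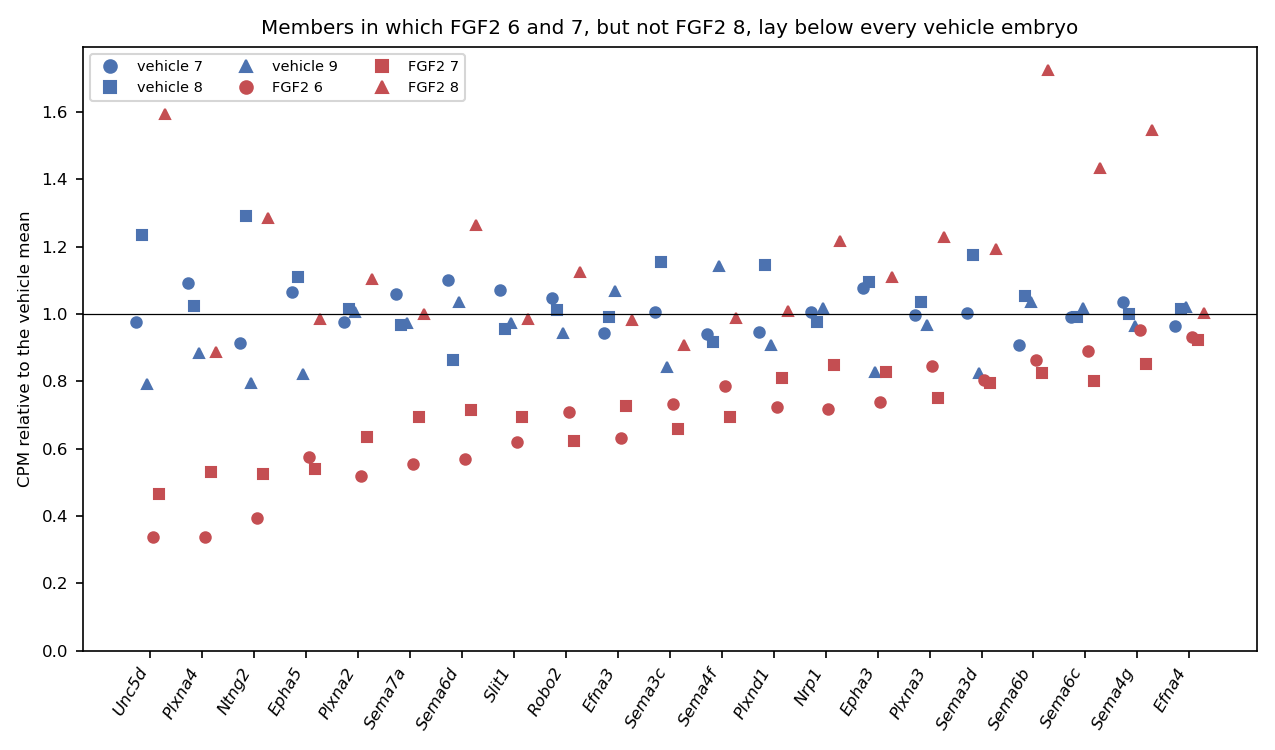
CPM relative to the vehicle mean in each embryo for the 21 members in which FGF2 6 and 7, but not FGF2 8, were below every vehicle embryo, on an axis from 0. The members are in order of the fold change without FGF2 8, from Unc5d (-1.32 on the log2 scale) to Efna4 (-0.11).

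Without FGF2 8, 13 members were called higher and 17 lower, where 964 and 979 of all 22373 genes tested were. The members included 19 identifiers (18 symbols) not called with FGF2 8, 13 of them lower. Of the 19, 13 had 1 of the patterns above, picked because FGF2 8 differed, so their calls are no separate evidence of it. The 19 included Plxna2 (log2 fold change -0.80, edgeR adjusted p = 0.00203), Robo2 (-0.59, adjusted p = 0.00368), Slit1 (-0.61, adjusted p = 0.00560), Epha5 (-0.84, adjusted p = 0.0162) and Unc5d (-1.32, adjusted p = 0.0262). In the other direction they included Efna5 (0.85, edgeR adjusted p = 0.000766) and Ephb3 (0.62, adjusted p = 0.00761). In the list of 15 dorsal telencephalic genes, counted after the values had been seen, FGF2 8 was the highest FGF2 embryo in 9 and the lowest in 4. Neurod6, a marker of cortical projection neurons, is among the 9, at 82.5, 135 and 266 CPM in FGF2 6, 7 and 8, and the progenitor gene Emx2 among the 4, at 119, 105 and 77.0 CPM. FGF2 8 was below every vehicle embryo in 14 of the 15. The 21 members were picked because FGF2 8 was not, so the lists cannot be compared in this respect. The part of these cells in the values of the members was not tested.

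Reads over a whole gene span include introns, and the RPKM values fit a gene model of exons. In 58 members with a mean of at least 1 RPKM the ratio of CPM to RPKM, a length in kb, had a median of 6.68, and in 15 it was above 10. Dcc stood far out, at 192 kb over a span of 1090 kb, followed by Robo2 at 34.2 and Epha5 at 23.8 kb. For Dcc the ratio was 254, 114 and 325 kb in the FGF2 and 198, 237 and 108 kb in the vehicle embryos, so that FGF2 7 and vehicle 9 had the fewest span reads per exonic level.

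Dcc accordingly differed between the measures. Its counts over the span were 371, 225 and 423 CPM in the FGF2 and 478, 505 and 282 CPM in the vehicle embryos, which overlap. In RPKM it was at 1.46, 1.97 and 1.30 against 2.42, 2.13 and 2.60, and there every FGF2 embryo was below every vehicle embryo. Over the 58 members the direction was the same in both measures for 56, and the largest difference between them was 0.283 on the log2 scale, that of Dcc. Of 59 members with at least 1 RPKM in 3 libraries, 27 had separate groups in RPKM (13 higher and 14 lower), where 28.6% of all such genes had. Over 1422 long genes the median ratio of CPM to RPKM was highest in FGF2 8, at 8.83 kb. In the other embryos it was 7.99 to 8.68 kb.

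**Figure D5:**
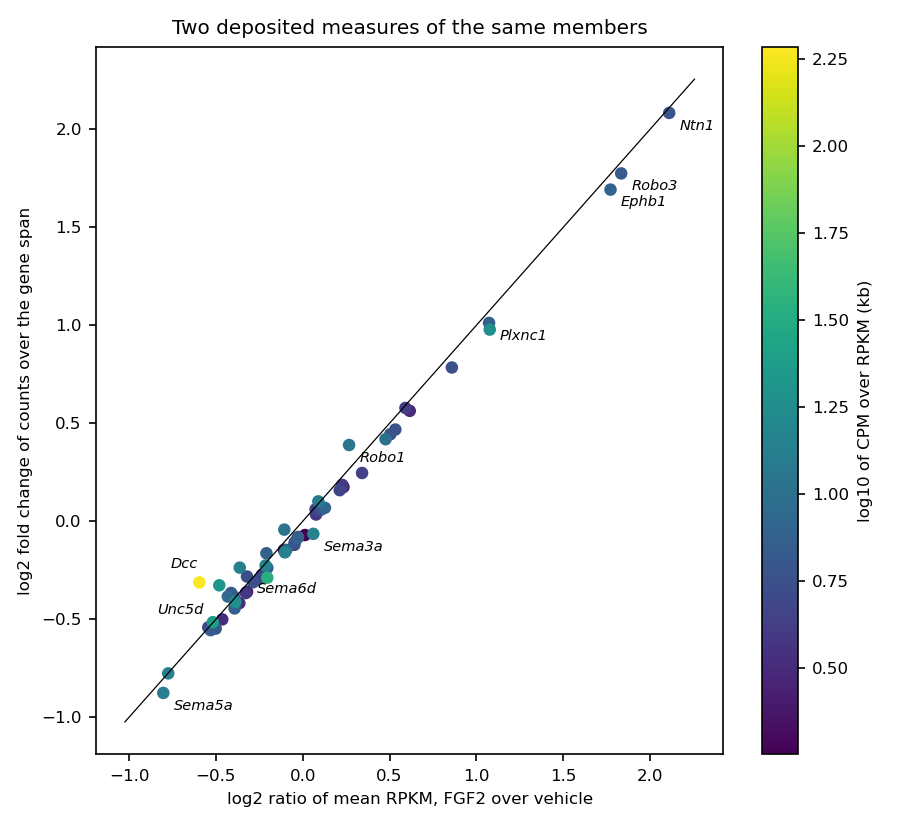
Log2 fold change of counts over the gene span against the log2 ratio of mean RPKM (FGF2 over vehicle) for 58 members, coloured by the log10 of CPM over RPKM in kb, with a line at equal values. Most members lie close to the line, the larger part of them slightly below it, and Dcc, at -0.31 and -0.60, lies farthest from it.

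Beyond these families, other genes of the guidance pathway were counted from lists of further cues and receptors, adhesion molecules and cytoplasmic effectors. Of 107 identifiers for 104 other genes of the pathway, 4 were higher and 3 lower (3.74% and 2.8%), with a median log2 fold change of -0.04. Among 26 other cues and receptors, Flrt2, a ligand of Unc5 receptors, rose by 0.49, and Ret, a receptor of GDNF-family signals, by 2.73, from 0.18 to 0.35 CPM in the vehicle embryos to 1.62 to 2.07 CPM. Rtn4rl2, a relative of the Nogo receptor, fell by 0.97. Of 21 adhesion molecules and co-receptors 0 rose and 2 fell, the adhesion molecule Alcam by 0.80 and the heparan sulfate carrier Gpc1, which can bind Slits, by 0.66. Among 60 cytoplasmic effectors 2 rose, Dpysl4, of the collapsin response mediator family, 2.01-fold and Vav3, a guanine nucleotide exchange factor, 1.94-fold, and 0 fell.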

How the data were processed

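Per the labels' protocols, RNA from fixed sections was DNase-treated and read by Illumina sequencing of paired-end libraries. The submitters' processing notes name Bowtie2 2.1.0.0, bedtools 2.12.0, TopHat2 2.0.9, CASAVA 1.8 and build NCBIM37 (mm9), with no role for each. The deposited counts are whole numbers of alignments over each gene span, introns included, and whether strand was used is not stated. The deposited RPKM values were made by the authors with an unstated tool and were joined by symbols that occur once (34290 of 37991 genes). Coordinates are as the files give them.

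Counts were tested with edgeR 4.0.16 in R 4.3.3 (filterByExpr, TMM, robust glmQLFit, glmQLFTest) over all 6 libraries without covariates, adjusted by Benjamini-Hochberg over 21983 genes and checked on simulated counts. The simulated counts held no sex difference, and their changes were larger than those of most called members. P-values measure the spread between 3 embryos per group, and a permutation of 3 against 3 cannot give a two-sided p below 0.1. Alternatives used limma 3.58.1 and DESeq2 1.42.0. Members and lists were chosen with earlier results of these data known. Named members are those called and, per family, that with the highest RPKM and that with the smallest p. Others named are accounted for by family or were chosen after their values were seen. Of the pathway list, 3 symbols (Draxin, Rgmc and Ackr3) matched no gene.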

Additional observations from a re-analysis of the deposited data

How the results depend on the processing

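Of the 8 members higher, 4 lower, 7 pathway genes and 799 genes called in all, halved counts of vehicle 9, RLE size factors, testing every gene, requiring 1 CPM in 3 libraries and scaling by totals alone moved none by over 1.5 times, although with every gene tested Robo3 was lost and 1 other member gained. Without 1 embryo the counts were 3 to 13 members higher, 1 to 17 lower, 2 to 24 pathway genes and 218 to 1943 genes in all. DESeq2 called 15 members higher, 17 pathway genes and 2065 genes, and voom with sample quality weights 14 higher, 16 lower, 20 pathway genes and 2259 genes. Limma on log2(RPKM + 1) called 4 members higher, 1 pathway gene and 432 genes, on log2(RPKM + 0.1) 5, 1 and 431, and on log2(RPKM + 1) without a filter 2 higher, 2 lower, 2 pathway genes and 271 genes. Genes overlapping no other span gave 3 members higher and 493 genes, since fewer genes were tested. With sex as a covariate 0 members were higher, 0 lower, 0 pathway genes and 5 genes were called. Rises made up 73.8% of all called genes, 49.6% without FGF2 8, 56.4% with voom and 65.8% with DESeq2. The cause of these shifts was not tested.

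The embryo numbers 7 and 8 occur in both groups, but the labels do not say that they mark a litter, and deviations of FGF2 7 and vehicle 7 correlated at -0.0434 and of FGF2 8 and vehicle 8 at -0.0184. With the number as a replicate block 6 members were higher, 1 lower, 8 pathway genes and 703 genes were called. The direction turned in at least 1 fit without 1 embryo for 14 members, 0 of them called. Among the members named by rule, it turned for Ephb4 without FGF2 8 (0.0702, the highest of -0.229 to 0.0702 without 1 embryo) and with voom (0.00938). For Nrp1 it turned without FGF2 6 (0.0428, the highest of -0.353 to 0.0428) and with the block (0.0375). It also turned for Plxnb2 with sex as a covariate (0.00656) and for Sema6c without FGF2 8 (-0.241, the lowest of -0.241 to 0.210) and with voom (-0.176). Members not named by rule turned as well, such as Sema4g (0.158 to -0.100) and Epha6 (0.412 to -0.134) with voom.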

Other observations

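A small set of members showed FGF2 6 and 7 above the vehicle embryos and FGF2 8 within or below their range in CPM. Besides both identifiers of Efna5, these were Ephb3, at 32.3, 32.4 and 21.1 CPM in the FGF2 and 23.1, 19.3 and 20.7 CPM in the vehicle embryos, Ephb4, at 74.0, 73.3 and 46.2 against 72.2, 68.9 and 69.2 CPM, and Epha1, at 4.18, 4.78 and 3.62 against 3.97, 3.95 and 4.16 CPM. For Ephb4 FGF2 8 was the lowest of the 6 embryos by a wide margin. For Epha1 every FGF2 embryo was above every vehicle embryo in RPKM. These genes were chosen after their values were seen, and no explanation for them was tested.

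The hosts of the 2 loci of miR-218, Slit2 and Slit3, each carry that microRNA gene inside their spans, so reads of its precursor would count for the host. Slit3, with 4 other genes over its span, was at 1728, 1441 and 1637 reads in the FGF2 and 1017, 1147 and 758 reads in the vehicle embryos, and in RPKM at 1.02, 1.04 and 0.71 against 0.74, 0.78 and 0.59, where the groups overlap.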
